A study of Homo sapiens with 12 samples.

Results

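Metformin and AICAR were set against each other directly on 4 of the 12 two-colour arrays of this series, which hold RNA of metformin-treated cells in one channel and RNA of AICAR-treated cells in the other. The 4 arrays were chosen by these channel labels alone. They are 2 dye-swap pairs, 1 from each of 2 independent cultures of LNCaP, an established human prostate cancer cell line. The cells received 5 mM metformin or 5 mM AICAR for 24 h according to the labels, and the other 8 arrays set each treatment against untreated control cells of the same cultures. Every ratio below is metformin over AICAR unless it is named as a ratio to control. The sources used here do not state the log base or the direction of the deposited ratios. Here they are taken as log2 ratios with Cy5 on top, the convention of the limma package with which they were made, and turned by the dyes in the labels. The direction is therefore likely rather than stated. In each culture the ratio of metformin to control on its own arrays followed the sum of the metformin to AICAR and AICAR to control ratios (r = 0.82 in culture 1 and 0.757 in culture 2, across probes and with shared extracts). This shows that the 3 comparisons were turned the same way, and it would hold as well if all were turned over. The overall direction rests on the dyes, on the convention and on genes of the study's text. The study took DDIT4, SESN2, XBP1, ATF4, ATF6 and DNAJB9 from its own microarray experiment, so their direction here is no independent evidence. It also found the proteins of HSPA5, ATF4 and DDIT3 higher with metformin by western blot. DDIT4, SESN2 and the ER stress genes the study names as higher with metformin are also higher here in metformin over control, and PPIF, which it names as lower, is lower. ATF6 was the weakest of them, at 0.64 and 0.26 in the 2 cultures, a mean of 0.45 that is under the study's threshold of 0.7. In AICAR over control it was at 0.31 and 0.75. Other genes of its text were mixed. ITPR1, an mRNA it reports as higher, was at 0.57 in metformin over control, but ITPR2, ITPR3 and MCU were at -0.06, 0.01 and 0.005. Where it reports more protein, the mRNA of NRF1 was at 0.34, but VDAC1, TFAM and NDUFA9 were at -0.515, -0.32 and -0.49. MFN2, reported as less protein, was at -0.46. The means of MFN2 and VDAC1 came from culture 2 alone. MFN2 was at 0.10 in culture 1 and -1.01 in culture 2, and VDAC1 at 0.003 and -1.03.

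Metformin, a biguanide taken for diabetes, inhibits complex I of the mitochondrial respiratory chain and lowers ATP, and the kinase AMPK responds to the higher ratio of AMP to ATP. AICAR enters the same pathway further down, as a nucleoside that cells phosphorylate into an AMP mimic that binds AMPK, and it is also an intermediate of purine synthesis. Unfolded proteins in the ER are sensed by PERK, IRE1 and ATF6. PERK, like the amino acid sensor GCN2, phosphorylates eIF2α, after which ATF4 is translated and induces DDIT3 (CHOP) and genes of amino acid supply, while IRE1 splices the mRNA of XBP1.

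Of 24558 features tested, 922 were higher with metformin than with AICAR, which is 3.75% of all features, and 466 were lower, which is 1.9%, so that 5.65% were called in either direction. A call required a Benjamini-Hochberg adjusted p under 0.05 over all features, from limma on the 2 culture means, together with a log2 ratio of more than 0.7 in either direction. Gene symbols were attached to 665 of the higher and 356 of the lower features. Ratios above log2 2 were found for 69 features and ratios below -2 for 4. Of the 1388 calls, 1387 had the same sign on all 4 arrays, against 39.0% of all features. Such agreement follows largely from the call itself, which was made on the same 4 arrays. The cultures differed by a median of 0.149 over all features, and the median of all ratios was -0.033. With 2 cultures a single residual degree of freedom remained, and the counts moved with 2 of the arrays. Without the culture 1 array with metformin in Cy3, 180 features were higher and 53 lower. Without the culture 2 array with metformin in Cy5, 205 were higher and 59 lower, while leaving out either of the remaining arrays gave 1203 or 1225 higher and 643 or 652 lower. Of the 116 genes past the test that are followed one by one, 38 passed with each of the 4 arrays left out in turn. The direction of the 116 could not turn on leaving out an array, since each had the same sign on all 4 arrays. With the arrays scaled to 1 median absolute deviation, 609 features were higher and 238 lower, and 59 of the 116 genes lost their call with their direction kept, DDIT3, DDIT4, TRIB3, HMOX1, SRXN1, KIF23 and HSPH1 among them. Log ratios carry no intensities, so neither levels nor distance from background can be given, and less of an mRNA per cell cannot be told apart from fewer cells that make it.

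**Figure D1:**
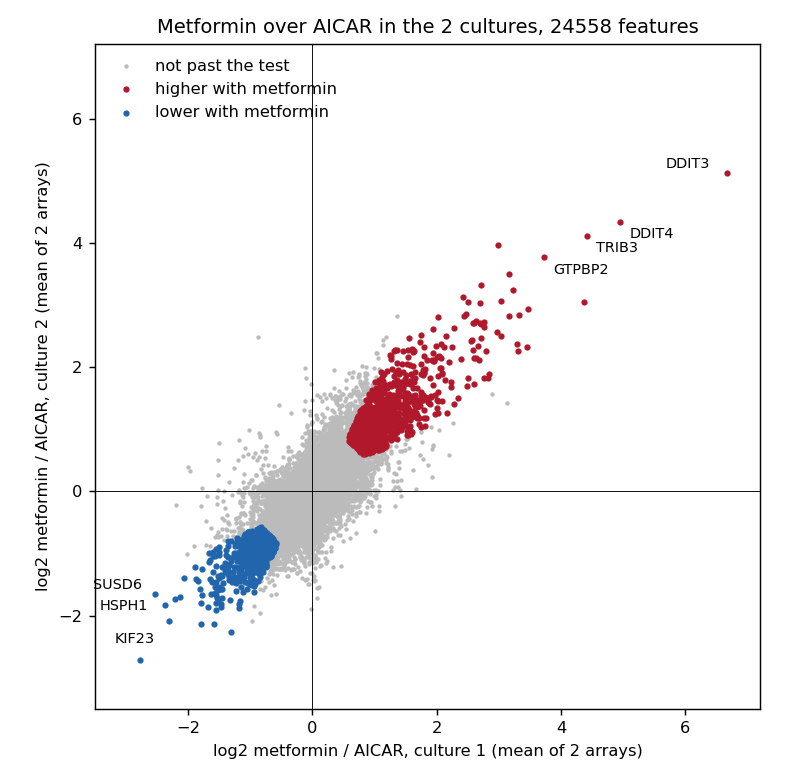
Log2 ratio of metformin to AICAR in culture 1 (x axis) and culture 2 (y axis), each the mean of a dye-swap pair, for 24558 features. The 922 red points are higher and the 466 blue points lower with metformin, grey points did not pass, and DDIT3, DDIT4 and TRIB3 lie at the upper right end.

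DDIT3, which encodes the pro-apoptotic transcription factor CHOP, had the highest ratio of all called features. Single-array values are given in the order culture 1 with metformin in Cy5, culture 1 with metformin in Cy3, culture 2 with metformin in Cy5 and culture 2 with metformin in Cy3. For DDIT3 they were 6.67, 6.67, 5.13 and 5.11, with a mean of 5.89 (SE 0.407 over 2 cultures; limma, adjusted p = 0.0233), which is 59.5-fold. Both arrays of culture 1 lay above both arrays of culture 2. DDIT4, whose product REDD1 restrains mTORC1, had 5.13, 4.78, 4.13 and 4.54, with a mean of 4.64 (SE 0.18, adjusted p = 0.0233). TRIB3, a pseudokinase that CHOP and ATF4 induce, had 4.35, 4.50, 3.76 and 4.46, with a mean of 4.27 (SE 0.116, adjusted p = 0.0233). All arrays lay far above 0 for these 3 genes, which passed with any single array left out. With scaled arrays none of the 3 passed, at ratios of 6.24, 4.87 and 4.45.

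The next highest named genes had means of 3.75 for GTPBP2, a GTPase of ribosome rescue, 3.71 for HERPUD1, an ER membrane protein of protein degradation, and 3.33 for FADD, the adaptor of death receptors. HMOX1, heme oxygenase, followed at 3.20, and SRXN1, sulfiredoxin, at 3.08. SEPHS2, which makes the selenium donor for selenoproteins, had 3.05, TIGD2 3.02, XBP1 2.89 and CYP2R1, a vitamin D 25-hydroxylase, 2.87. HERPUD1 and XBP1 differed most between cultures among these, at 4.36 and 3.05 and at 3.46 and 2.32. Both were no longer called without either of the 2 arrays named above, with ratios of 3.63 to 3.78 and 2.82 to 2.96 over the arrays left out.

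**Figure D2:**
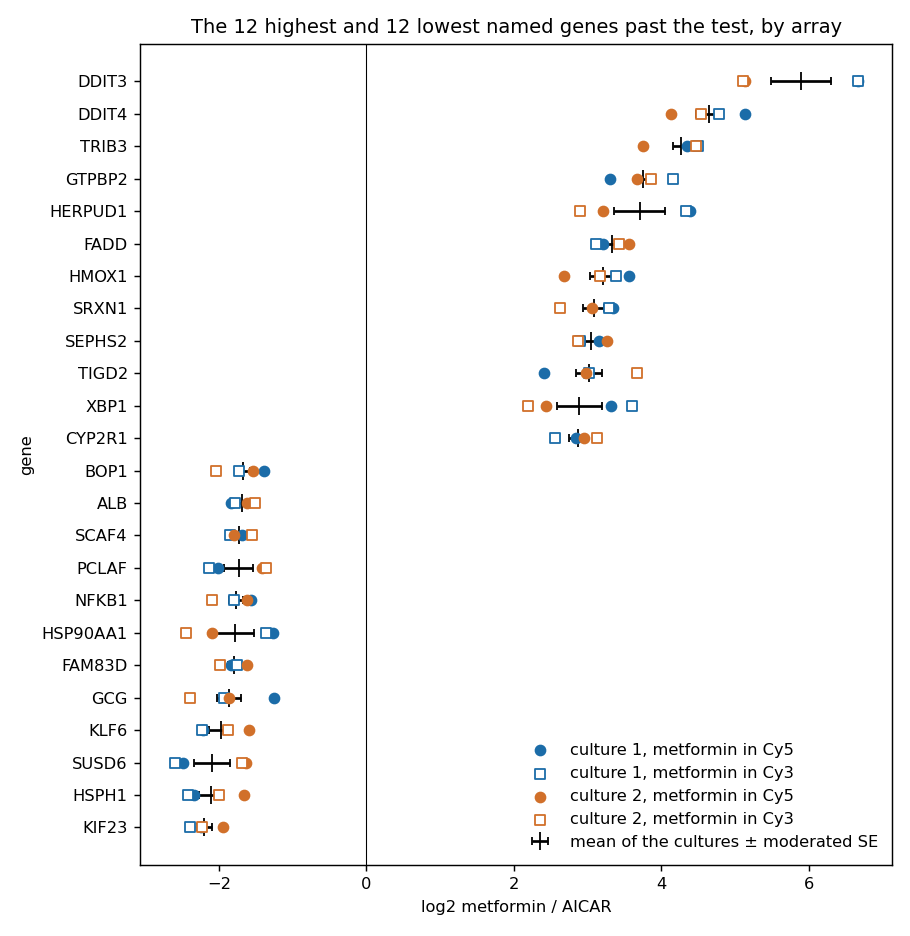
Log2 ratio of metformin to AICAR (x axis) on each of the 4 arrays for the 12 called genes with the highest and the 12 with the lowest ratios (y axis). Colours mark the culture, filled circles metformin in Cy5, open squares metformin in Cy3, and black ticks with bars the mean and moderated SE. On all 4 arrays the upper 12 genes lie above 2 and the lower 12 below -1.

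The ratios to control show how each treatment stood behind these differences. They come from the other 8 arrays but from the same extracts, so they are not independent of the direct ratio and are given side by side without a test. DDIT3 was at 5.64 and 4.59 in metformin over control in the 2 cultures and at -1.38 and -1.05 in AICAR over control. The pair of values was 3.35 and 3.15 against -1.42 and -1.22 for DDIT4, and 4.01 and 3.72 against -0.72 and -0.46 for TRIB3. HMOX1 had 2.42 and 2.33 with metformin and -0.84 and -0.81 with AICAR. FADD had another pattern, with 0.08 and 0.35 in metformin over control and -3.08 and -3.10 in AICAR over control. XBP1 had 1.66 and 0.55 with metformin and -1.86 and -1.96 with AICAR. TIGD2 likewise lay farther from control with AICAR, at 1.14 and 1.41 with metformin and -1.83 and -2.48 with AICAR. Over all 665 named genes that were higher, the median log2 ratio to control was 0.44 with metformin and -0.68 with AICAR, and 227 of them lay above 0.7 in metformin over control while 319 lay below -0.7 in AICAR over control. Of all 14418 named genes, 402 and 686 did so. Over the 356 named genes that were lower, the medians were -0.52 with metformin and 0.38 with AICAR, with 126 below -0.7 in metformin over control and 95 above 0.7 in AICAR over control. Of all named genes, 386 and 239 did so, and the medians were 0.00 and 0.05.

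**Figure D3:**
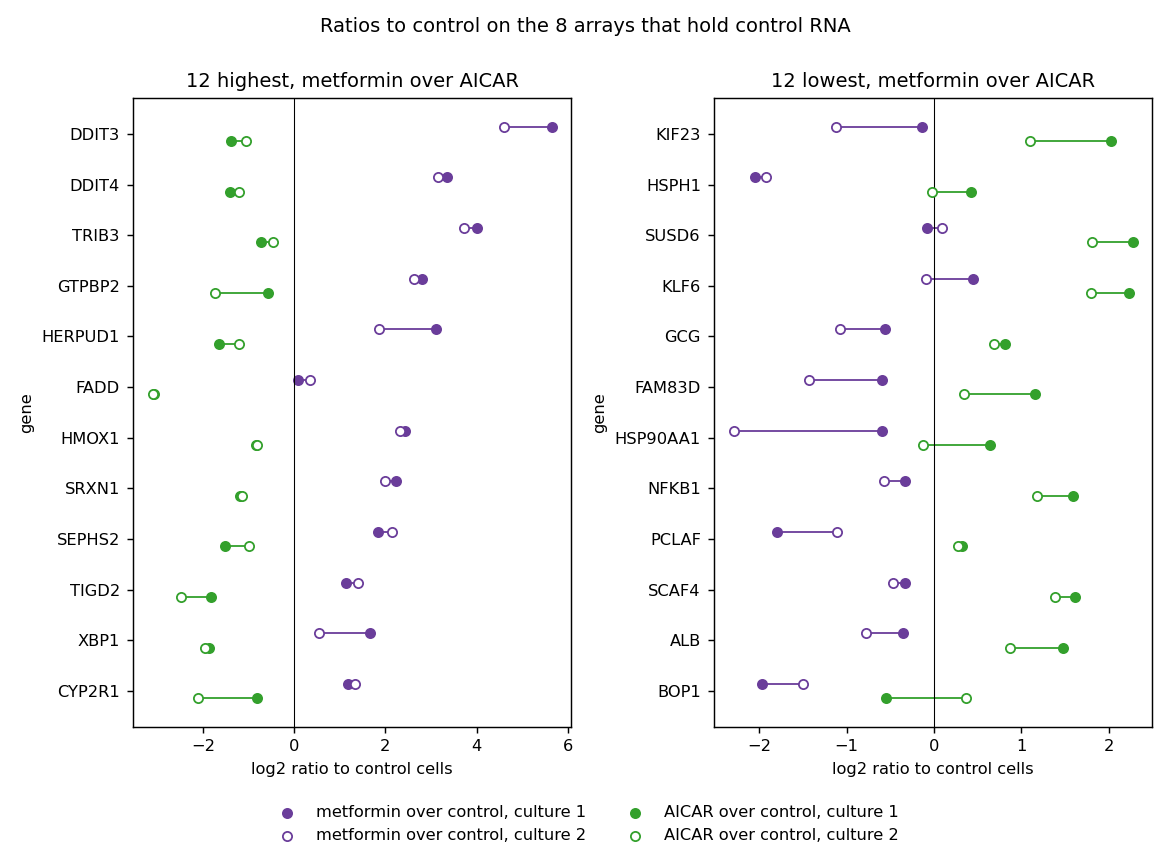
Log2 ratios to control cells (x axis) for the 12 highest (left) and 12 lowest (right) named genes (y axis), metformin over control in purple and AICAR over control in green, filled for culture 1 and open for culture 2. DDIT3 lies to the right of 0 with metformin and to the left with AICAR, FADD is near 0 with metformin and near -3 with AICAR, and HSPH1 is near -2 with metformin.

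In the list of sensors and regulators of the unfolded protein response, 10 of 24 measured genes were higher with metformin and none lower. The share higher was 41.7%, against 3.75% of all features, and the median log2 ratio was 0.42. The calls were of regulators and BiP, and no sensor passed. ERN1 (IRE1) was at 0.60 (adjusted p = 0.0937), EIF2AK3 (PERK) at 0.03 and EIF2AK4 (GCN2) at -0.39. DDIT3, TRIB3 and ATF3 also belong to the list of ATF4 and CHOP targets below. Besides DDIT3, TRIB3 and XBP1, ATF3 and HSPA5 were the highest. ATF3, a stress-induced repressor and activator of the ATF family, had 3.33, 3.27, 2.37 and 2.15, with a mean of 2.78 (SE 0.281, adjusted p = 0.0294) over 4 probes that disagreed, since 3 of them read 3.15 to 4.13 and one read 0.26. HSPA5 encodes BiP, the main chaperone of the ER lumen, and had 2.41, 1.99, 2.65 and 1.52, with a mean of 2.14 (SE 0.088, adjusted p = 0.0233). Its ratio to control was 1.27 and 0.82 with metformin and -1.30 and -1.54 with AICAR. ATF4 had 1.63, 0.85, 1.72 and 0.79, with a mean of 1.25 (SE 0.083, adjusted p = 0.0233). For ATF4, as for HSPA5, both arrays with metformin in Cy5 read higher than both with metformin in Cy3. This dye difference is averaged out within a culture and does not enter the SE. ATF6 did not pass, with a mean of -0.15 (SE 0.166, adjusted p = 0.657) and 2 probes of opposite sign, at -1.09 and 0.79. Of the list, 4 were called without the culture 1 array with metformin in Cy3, and without the culture 2 array with metformin in Cy5, or with scaled arrays, 3.

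In the ER folding and degradation list, 9 of 45 measured genes were higher and none lower, with a median of 0.25. Of all features, 3.75% were higher and 1.9% lower. DNAJB9, a cochaperone of BiP, had 2.30, 2.70, 2.80 and 3.30, with a mean of 2.77 (SE 0.163, adjusted p = 0.0233). SEL1L and SYVN1, which form the HRD1 ubiquitin ligase complex of ER-associated degradation, had means of 1.79 and 1.65. Many folding enzymes of the lumen were not called, among them PDIA6 at -0.49, PDIA4 at -0.45, CALR at -0.11 and HSP90B1 at 0.04, which were picked after their values were seen. Degradation thus supplied HERPUD1, SEL1L and SYVN1 among the 5 highest of the list, and BiP with its cochaperone the other 2. Leaving out the culture 1 array with metformin in Cy3 left 3 calls, and leaving out the culture 2 array with metformin in Cy5, or scaling the arrays, left 4.

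ATF4 and CHOP targets held the most calls of any list, with 21 of 45 measured genes higher, none lower and a median of 0.98. The share higher was 46.7%, against 3.75% of all features. STC2, a secreted glycoprotein induced by ER stress, had 2.54, 2.80, 2.33 and 2.35, with a mean of 2.50 (SE 0.119, adjusted p = 0.0233). TNFRSF10B, the death receptor DR5, had 2.78, 2.49, 2.16 and 2.14, with a mean of 2.39 (SE 0.149, adjusted p = 0.0233), and stood at 1.35 and 1.05 in metformin over control and -1.26 and -1.24 in AICAR over control. ASNS, asparagine synthetase, was called at 2.23 and SLC7A5, a subunit of the leucine transporter, at 1.36, both named after their values were seen. PHGDH and PSPH, enzymes of serine synthesis, were at -0.22 and 0.12 and did not pass, and PPP1R15A, the GADD34 phosphatase subunit, was at -0.21. Without the culture 1 array with metformin in Cy3, 10 targets were called, and the same number without the culture 2 array with metformin in Cy5. Scaled arrays gave 7.

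Cytosolic aminoacyl-tRNA synthetases, which charge tRNAs and several of which ATF4 induces, were higher in 7 of 19 cases and lower in 1. These shares were 36.8% and 5.3%, against 3.75% and 1.9% of all features, and the median was 0.55. SARS1, the seryl enzyme, had 2.58, 2.12, 1.58 and 1.43, with a mean of 1.93 (SE 0.233, adjusted p = 0.036). AARS1 was at 1.81, CARS1 at 1.54, GARS1 at 1.28 and WARS1 at 1.25, and FARSB, a subunit of the phenylalanyl enzyme, was lower at -0.84. Against control CARS1 stood at 1.43 and 1.73 with metformin and at 0.02 and -0.08 with AICAR. No member of the list was called without the culture 1 array with metformin in Cy3, nor without the culture 2 array with metformin in Cy5, and 2 were higher and 1 lower with scaled arrays.

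The promoters of 5 of these stress genes are shown because they are called here and hold a motif of the ER stress or amino acid response in the 250 bases before a RefSeq start (GRCh38.p14). The letters searched, on both strands, were TGATGNAA (the core of the C/EBP-ATF response element), CCAAT followed after 9 free bases by CCACG (the ER stress response element) and ATTGG followed after 1 free base by CCACG (the ER stress response element II), and matches are in capitals. In HERPUD1 (chr16:56931892-56932141, plus strand) the capitals mark a C/EBP-ATF core on the opposite strand, 176 to 169 bases before the start, and then an ER stress response element II, 117 to 107 bases before it. XBP1 (chr22:28800570-28800819, minus strand) and HSPA5 (chr9:125241344-125241593, minus strand) each have an ER stress response element, 52 to 34 and 66 to 48 bases before the start. ATF3 (chr1:212565157-212565406, plus strand) and ASNS (chr7:97872409-97872658, minus strand) each have the C/EBP-ATF core, 191 to 184 and 68 to 61 bases before it.
HERPUD1: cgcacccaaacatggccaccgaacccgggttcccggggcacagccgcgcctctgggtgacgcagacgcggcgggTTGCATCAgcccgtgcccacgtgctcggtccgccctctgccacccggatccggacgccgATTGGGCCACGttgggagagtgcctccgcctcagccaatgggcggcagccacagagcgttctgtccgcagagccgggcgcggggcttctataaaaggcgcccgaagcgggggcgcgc
XBP1: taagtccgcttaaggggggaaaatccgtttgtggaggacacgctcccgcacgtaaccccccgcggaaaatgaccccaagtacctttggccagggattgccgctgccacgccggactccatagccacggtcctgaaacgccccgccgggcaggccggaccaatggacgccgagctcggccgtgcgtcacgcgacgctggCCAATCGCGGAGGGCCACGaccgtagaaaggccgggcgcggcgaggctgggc
HSPA5: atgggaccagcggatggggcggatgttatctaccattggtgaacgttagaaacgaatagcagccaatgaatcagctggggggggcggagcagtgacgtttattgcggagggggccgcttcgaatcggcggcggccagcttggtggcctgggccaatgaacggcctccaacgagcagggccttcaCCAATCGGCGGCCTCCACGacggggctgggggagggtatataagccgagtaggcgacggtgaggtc
ATF3: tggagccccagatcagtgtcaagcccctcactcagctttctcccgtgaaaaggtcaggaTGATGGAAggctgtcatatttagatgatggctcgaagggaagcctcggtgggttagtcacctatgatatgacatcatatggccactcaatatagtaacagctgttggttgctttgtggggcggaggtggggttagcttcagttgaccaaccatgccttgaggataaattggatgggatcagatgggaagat
ASNS: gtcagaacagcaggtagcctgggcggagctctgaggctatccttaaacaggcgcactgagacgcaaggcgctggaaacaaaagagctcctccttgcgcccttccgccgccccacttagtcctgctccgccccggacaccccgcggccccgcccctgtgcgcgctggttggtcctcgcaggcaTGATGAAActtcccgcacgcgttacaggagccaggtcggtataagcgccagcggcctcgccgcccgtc
Of all 35116 promoters, which belong to 27305 genes, 3.14% hold the C/EBP-ATF core, 0.074% the ER stress response element and 0.0513% the ER stress response element II. Promoters were found for 29 of the 32 genes of the UPR, ER folding and ATF4 lists that were higher with metformin, 47 promoters in all. Of these, 7 (14.9%) hold the C/EBP-ATF core, 2 (4.26%) the ER stress response element and 1 (2.13%) the ER stress response element II. These shares count promoters, of which a gene can have several. The lists were made of genes known for these responses, so no conclusion is drawn from the higher shares. A match describes the letters only and is not evidence of binding in these cells.

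Energy stress and AMPK genes gave 1 call in each direction among 21 measured members (9.5%, against 5.65% of all features), with a median of 0.06. DDIT4 was the higher one and kept its call with any array left out, whereas SESN1 lost its call without either of the 2 arrays named above. Neither was called with scaled arrays. SESN1, a p53-induced sestrin that acts on AMPK and mTORC1, was lower, with -1.15, -1.24, -0.77 and -0.82 and a mean of -0.996 (SE 0.132, adjusted p = 0.0403), and its ratio to control was 0.41 and 0.41 with metformin and 1.38 and 1.29 with AICAR. One of its probes read -1.85 and the other -0.14. SESN2 had 0.32, 1.27, 1.04 and 2.09, with a mean of 1.18 (SE 0.214, adjusted p = 0.0658), and did not pass. Both drugs stood above control for SESN2, at 2.12 and 2.77 with metformin and 1.62 and 1.11 with AICAR. Among p53 targets 4 of 25 were higher and 3 lower (16.0% and 12.0%, against 3.75% and 1.9% of all features), with a median of 0.32. TNFRSF10B, XPC of nucleotide excision repair at 1.44, CDKN1A, the inhibitor p21, at 1.28 and TP53INP1 at 1.04 were the higher ones, and the 2 probes of CDKN1A read 0.00 and 2.56. SUSD6 at -2.10, SESN1 and MDM2, the ubiquitin ligase of p53, at -0.99 were the lower ones. In AICAR over control SUSD6 had 2.27 and 1.81 and MDM2 0.91 and 1.35, whereas in metformin over control they had -0.08 and 0.09, and 0.04 and 0.08. Omitting the culture 1 array with metformin in Cy3 left 1 p53 target higher and none lower, and the same held without the culture 2 array with metformin in Cy5, while scaled arrays gave 1 in each direction.

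DNA replication genes were lower with metformin in 19 of 41 cases (46.3%, against 1.9% of all features) and higher in none. The median was -0.69. MCM2, a subunit of the replicative helicase, had -1.62, -1.51, -1.43 and -1.66, with a mean of -1.55 (SE 0.083, adjusted p = 0.0233). PCNA, the sliding clamp of DNA polymerases, had -1.38, -1.38, -1.14 and -1.33, with a mean of -1.30 (SE 0.091, adjusted p = 0.0233). The clamp loader subunit RFC3 was at -1.35, thymidylate synthase (TYMS) at -1.29 and MCM3 at -1.23. Probes disagreed for RFC3, at -2.31 and -0.39, and for TYMS, at -2.39 and -0.20. In metformin over control MCM2 had -1.94 and -1.67 and PCNA -1.35 and -1.73, and in AICAR over control they had -0.44 and -0.34, and 0.05 and -0.21. Both were called with any single array left out, but the list had 3 calls without the culture 1 array with metformin in Cy3 and 3 without the culture 2 array with metformin in Cy5. With scaled arrays it had 11, PCNA not among them.

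Mitosis genes were lower in 10 of 43 cases and higher in 2 (23.3% and 4.7%, against 1.9% and 3.75% of all features). The median was -0.49. KIF23, the kinesin of the central spindle, had the lowest ratio of the named genes past the test, with -2.24, -2.40, -1.94 and -2.23 and a mean of -2.20 (SE 0.102, adjusted p = 0.0233). The checkpoint protein MAD2L1 was at -1.64 and the kinase CDK1 at -1.60. CENPA, the centromeric histone, and AURKA, a spindle kinase, ran the other way, at 1.26 and 1.02. Both drugs had them below control, CENPA at -0.60 and -0.46 with metformin and -1.83 and -1.78 with AICAR, and AURKA at -0.61 and -0.44 with metformin and -1.67 and -1.66 with AICAR. KIF23 was at -0.13 and -1.13 in metformin over control and at 2.03 and 1.10 in AICAR over control. Without the culture 1 array with metformin in Cy3, 3 mitosis genes were called lower and 1 higher, and without the culture 2 array with metformin in Cy5, 3 lower and none higher. Scaled arrays gave 6 lower and 3 higher. FAM83D and PCLAF, proteins of the spindle and of the PCNA complex outside these lists, were among the 12 lowest genes, at -1.80 and -1.73.

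**Figure D4:**
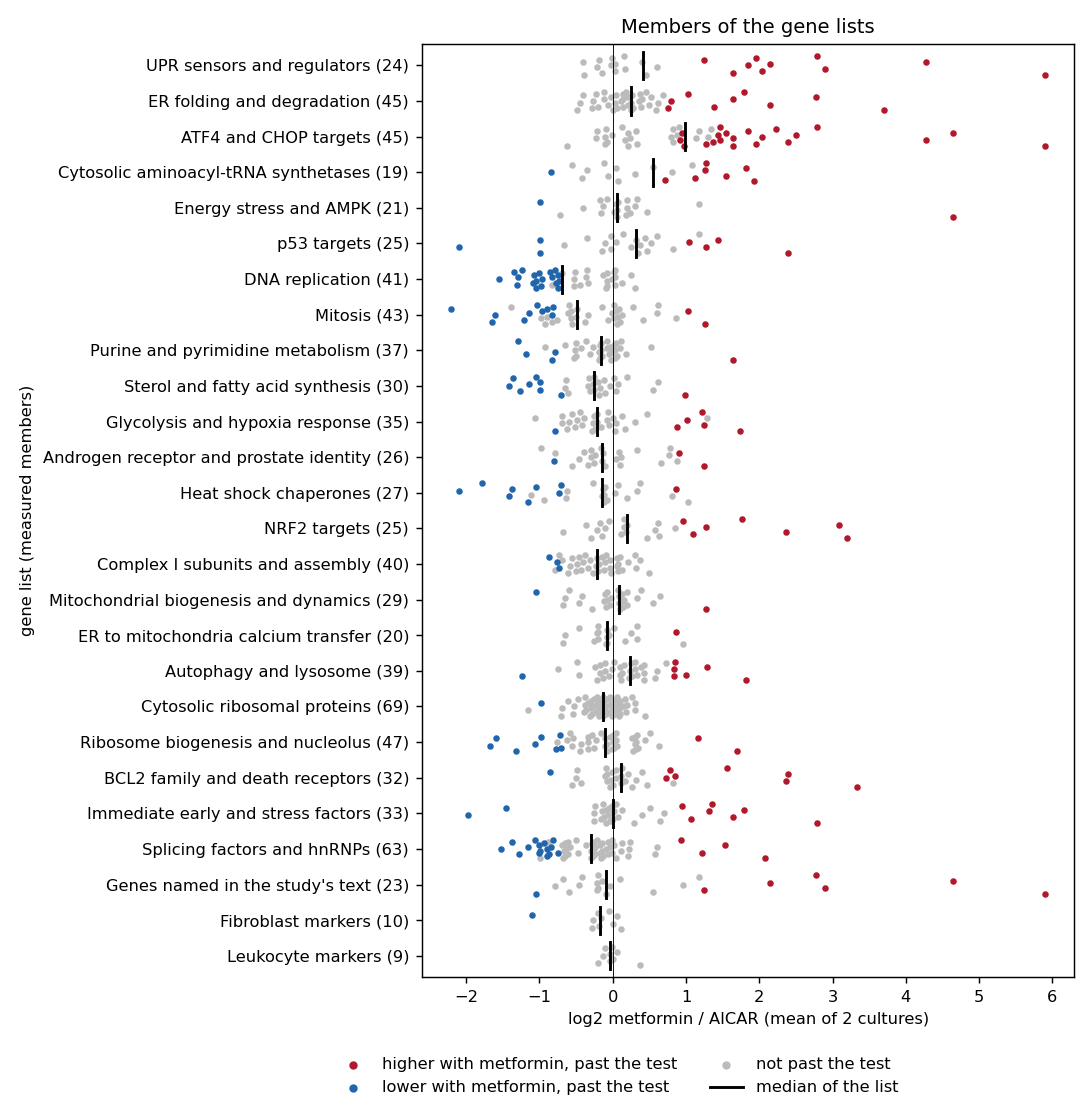
Log2 ratio of metformin to AICAR (x axis) of each measured member of the 26 gene lists (y axis, members in parentheses), red where higher and blue where lower with metformin and past the test, grey otherwise, with a black bar at the list's median. The ATF4 and CHOP targets have the highest median, 0.98, and the DNA replication genes the lowest, -0.69.

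Purine and pyrimidine genes are of interest because AICAR is itself a purine intermediate. Of 37 measured, 1 was higher (2.7%, against 3.75% of all features) and 4 were lower (10.8%, against 1.9%), with a median of -0.16. UMPS, which makes UMP, had 1.59, 1.40, 1.81 and 1.77, with a mean of 1.64 (SE 0.113, adjusted p = 0.0233), and both drugs had it below control, at -1.32 and -0.76 with metformin and -2.48 and -2.42 with AICAR. APRT, which salvages adenine, was lower at -1.19, and the other 3 lower genes, TYMS, RRM2 and RRM1, belong to the replication list as well. UMPS kept its call with any array left out, and all 4 lower genes lost theirs without either of the 2 arrays named above, as TYMS, RRM2 and RRM1 did with scaled arrays. Sterol and fatty acid genes were lower in 8 of 30 cases and higher in 1 (26.7% and 3.3%, against 1.9% and 3.75% of all features). Their median was -0.26. The desaturase FADS1 had -1.45, -1.46, -1.47 and -1.26, with a mean of -1.41 (SE 0.086, adjusted p = 0.0233). SCD, another desaturase, was at -1.36, EBP of the sterol pathway at -1.27, fatty acid synthase (FASN) at -1.14 and ACLY, which makes cytosolic acetyl-CoA, at -1.04. FASN stood at -1.65 and -1.25 in metformin over control and -0.38 and -0.32 in AICAR over control, whereas SCD stood at -0.23 and -0.78 and at 1.04 and 0.71. HSD17B7, a sterol reductase, was higher at 0.98. Of the lipid genes 2 were called lower and none higher without the culture 1 array with metformin in Cy3, and the same counts came without the culture 2 array with metformin in Cy5. With scaled arrays 4 were lower and 1 higher.

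Heat shock chaperones, most of them of the cytosol, were lower in 8 of 27 cases and higher in 1. The median was -0.15 and the shares were 29.6% and 3.7%, against 1.9% and 3.75% of all features. HSPH1, a nucleotide exchange factor of HSP70, had -2.34, -2.41, -1.66 and -1.99, with a mean of -2.10 (SE 0.164, adjusted p = 0.0243). HSP90AA1 was at -1.79, its cochaperone CHORDC1 at -1.41, HSPB1 (HSP27) at -1.37 and DNAJB6 at -1.16. The higher gene was HSPA9, the HSP70 of mitochondria, at 0.86. Against control HSPH1 had -2.05 and -1.93 with metformin and 0.42 and -0.02 with AICAR, and HSPA9 had 1.48 and 1.41 with metformin and 0.52 and 0.21 with AICAR. The 8 lower members thus had ratios opposite in sign to that of BiP, while 8 of the 27 had positive ratios, among them DNAJB1 at 1.03 and HSPA8 at 0.20, which did not pass. Calls fell to 2 lower and none higher without the culture 1 array with metformin in Cy3, and to the same counts without the culture 2 array with metformin in Cy5, and scaled arrays gave 4 lower and none higher.

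NRF2 targets, genes of the oxidative stress response, were higher in 7 of 25 cases (28.0%, against 3.75% of all features) and lower in none. The median was 0.19. HMOX1 had 3.57, 3.39, 2.68 and 3.17 on the 4 arrays, with a mean of 3.20 (SE 0.164, adjusted p = 0.0233), and SRXN1 3.35, 3.29, 3.06 and 2.63. The aldo-keto reductases AKR1C2 and AKR1C3 were at 2.37 and 1.76, though they are paralogs and an oligonucleotide of one may read the other. AKR1C1, of the same family, was at 0.15 and did not pass. The probes of AKR1C2 read 1.94, which did not pass alone, and 2.79. GCLM, a subunit of the enzyme that starts glutathione synthesis, was at 1.27. Classical targets without a call included GCLC at 0.15, TXNRD1 at 0.18 and SLC7A11 at -0.10, which were picked after their values were seen. With either of the 2 arrays named above left out, 3 of the list were called. With scaled arrays 1 was, and HMOX1, SRXN1, AKR1C2, AKR1C3 and GCLM were not.

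Death receptor genes and BCL2 family genes were higher in 7 of 32 cases and lower in 1. The median was 0.11 and the shares were 21.9% and 3.1%, against 3.75% and 1.9% of all features. FADD had 3.21, 3.11, 3.56 and 3.43, with a mean of 3.33 (SE 0.121, adjusted p = 0.0233), and TNFRSF1A, the TNF receptor, 2.58, 2.62, 2.16 and 2.12, with a mean of 2.37 (SE 0.145, adjusted p = 0.0233). Both were below control with AICAR, TNFRSF1A at -2.17 and -1.57, and near or above it with metformin, at 0.51 and 0.58. BMF and BIK, pro-apoptotic members of the BH3-only group, were at 1.56 and 0.85, and CYCS, cytochrome c, was lower at -0.86. BBC3 (PUMA) did not pass, at -0.10. Without the culture 1 array with metformin in Cy3, 3 of the list were called higher and none lower, and without the culture 2 array with metformin in Cy5, 4 higher and none lower. Scaled arrays gave 2 higher and none lower, without TNFRSF10B and TNFRSF1A.

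Splicing factors were lower in 15 of 63 cases and higher in 4 (23.8% and 6.3%, against 1.9% and 3.75% of all features). Their median was -0.29. HNRNPH2 was at -1.52, HNRNPH1 at -1.37, HNRNPD at -1.28, SRSF11 at -1.16 and HNRNPAB at -1.06, and HNRNPH1 and HNRNPH2 are close paralogs whose probes may share targets. CLK2, a kinase of SR proteins, was higher, with 2.02, 1.86, 2.13 and 2.32 and a mean of 2.08 (SE 0.111, adjusted p = 0.0233). It stood at -0.28 and 0.28 in metformin over control and at -2.20 and -1.92 in AICAR over control. RBM39 followed at 1.53, RBM5 at 1.22 and DDX17 at 0.93, with probes at 0.16 and 1.69 for DDX17. Ribosome biogenesis genes were lower in 8 of 47 cases and higher in 2 (17.0% and 4.3%), with a median of -0.11. BOP1 was lowest at -1.67, then GNL2 at -1.59, NCL (nucleolin) at -1.32, DDX47 at -1.05 and EBNA1BP2 at -0.98. UTP3 at 1.69 and RRS1 at 1.16 were higher, and both drugs had them below control, UTP3 at -0.85 and -0.41 with metformin and -2.27 and -2.34 with AICAR. Calls in the splicing list fell to 1 lower and 2 higher without the culture 1 array with metformin in Cy3 and to 3 lower and 2 higher without the culture 2 array with metformin in Cy5. Ribosome biogenesis kept 1 lower and none higher, and 3 lower and 1 higher, under the same omissions. With scaled arrays 5 splicing factors were lower and 3 higher, and 3 and 2 genes of ribosome biogenesis.

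Transcription factors of the immediate early and stress kind were higher in 7 of 33 cases and lower in 2, with a median of 0.00. These shares were 21.2% and 6.1%, against 3.75% and 1.9% of all features. JUN, part of AP-1, had 0.98, 1.64, 1.84 and 2.68, with a mean of 1.78 (SE 0.257, adjusted p = 0.045). The phosphatases of MAP kinases DUSP4 and DUSP1 were at 1.36 and 1.31 and IER5 at 1.64. KLF6 and KLF10 were lower. KLF6 had -2.21, -2.23, -1.59 and -1.87, with a mean of -1.98 (SE 0.151, adjusted p = 0.0243), and KLF10 a mean of -1.46. In AICAR over control KLF6 had 2.24 and 1.79 and in metformin over control 0.44 and -0.09. NFKB1 at -1.77 and SCAF4 at -1.72 had like patterns, at 1.59 and 1.19 and at 1.61 and 1.38 in AICAR over control. Calls fell to 1 higher and 2 lower without the culture 1 array with metformin in Cy3, and the same counts came without the culture 2 array with metformin in Cy5.

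Complex I, the target of biguanides, had 3 of 40 measured subunits and assembly factors lower (7.5%, against 1.9% of all features) and none higher, with a median of -0.21, namely NDUFB7 at -0.86, NDUFS1 at -0.77 and NDUFB3 at -0.73. NDUFA9 had -0.38, -0.50, -1.04 and -1.23, with a mean of -0.79 (SE 0.196, adjusted p = 0.119). In the list of mitochondrial biogenesis, dynamics and permeability 1 of 29 was higher and 1 lower (6.9% called, near the 5.65% of all features), with a median of 0.08. TFAM, the packaging and transcription factor of mitochondrial DNA, had -0.72, -1.10, -0.94 and -1.41, with a mean of -1.04 (SE 0.107, adjusted p = 0.0302), and stood at -0.06 and -0.57 in metformin over control and at 0.86 and 0.38 in AICAR over control. MIEF2, a receptor of the fission machinery, was higher at 1.28. NRF1 had a mean of 0.55, with an adjusted p of 0.0493 but a ratio inside the threshold of 0.7, and its probes read 0.03 and 1.07. PPIF, the gene for cyclophilin D, was at -0.60 (SE 0.1, adjusted p = 0.0564), DNM1L at -0.41 and MFN2 at -0.46 with values of -0.02, -0.07, -0.61 and -1.12. MFF at 0.10, TOMM20 at -0.09 and SDHA at -0.04 lay near 0. None of the 3 complex I genes, TFAM or MIEF2 was called without the culture 1 array with metformin in Cy3, nor without the culture 2 array with metformin in Cy5.

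In the list of ER to mitochondria calcium transfer, HSPA9 was the only call among 20 measured genes (5.0%, near the 5.65% of all features), and the median was -0.08. It lost its call without either of the 2 arrays named above and with scaled arrays, under which ITPR1 passed instead. Of the IP3 receptors, which release calcium from the ER, ITPR1 had 0.61, 0.78, 1.36 and 1.08, with a mean of 0.96 (SE 0.159, adjusted p = 0.0566), ITPR2 was at -0.22 (adjusted p = 0.238) and ITPR3 at -0.20 (adjusted p = 0.528). MCU, the mitochondrial uniporter, was at -0.20 (SE 0.1, adjusted p = 0.331). VDAC1 had -0.28, -0.29, -0.995 and -1.18, with a mean of -0.68 (SE 0.223, adjusted p = 0.189), and the arrays of culture 2 lay below those of culture 1. HIF1A was at -0.22 (adjusted p = 0.244). Of all 23 genes that the study names in its text, 6 were higher, 1 was lower and 16 did not pass, and they were chosen by the study in part on these samples, so that this count is no independent evidence. The counts were 4 higher and none lower without the culture 1 array with metformin in Cy3, 3 and none without the culture 2 array with metformin in Cy5, and 4 and 1 with scaled arrays.

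Glycolysis and hypoxia genes were higher in 5 of 35 cases and lower in 1 (14.3% and 2.9%, against 3.75% and 1.9% of all features). Their median was -0.22. The glucose transporter SLC2A1 had 1.81, 2.23, 1.28 and 1.63, with a mean of 1.74 (SE 0.167, adjusted p = 0.0277), and stood at 0.33 and -0.32 in metformin over control and at -1.84 and -1.53 in AICAR over control. NDRG1 was at 1.24, P4HA2, a prolyl hydroxylase of collagen, at 1.22, the lactate transporter SLC16A1 at 1.01 and PFKFB4 at 0.88, and GPI was lower at -0.79. Most glycolytic enzymes were not called, and the list's median ran against its calls. Autophagy and lysosome genes were higher in 6 of 39 cases and lower in 1 (15.4% and 2.6%), with a median of 0.23. GABARAPL1, an ATG8 protein of autophagosomes, had 1.93, 1.94, 1.69 and 1.73, with a mean of 1.82 (SE 0.101, adjusted p = 0.0233), and MAP1LC3B was at 1.28. MAP1LC3B was above control with both drugs, at 2.77 and 1.80 with metformin and 1.08 and 0.66 with AICAR. RB1CC1, an ULK1 complex subunit, was at 1.00, NPC1 of lysosomal cholesterol export at 0.85 and ATG4A at 0.84, and ATP6V1A, of the proton pump, was lower at -1.24. With either of the 2 arrays named above left out, 1 gene of each of these lists was called higher, and GPI was not called. With scaled arrays 3 glycolysis and hypoxia genes and 2 autophagy genes were higher, SLC2A1 and GABARAPL1 not among them.

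**Figure D5:**
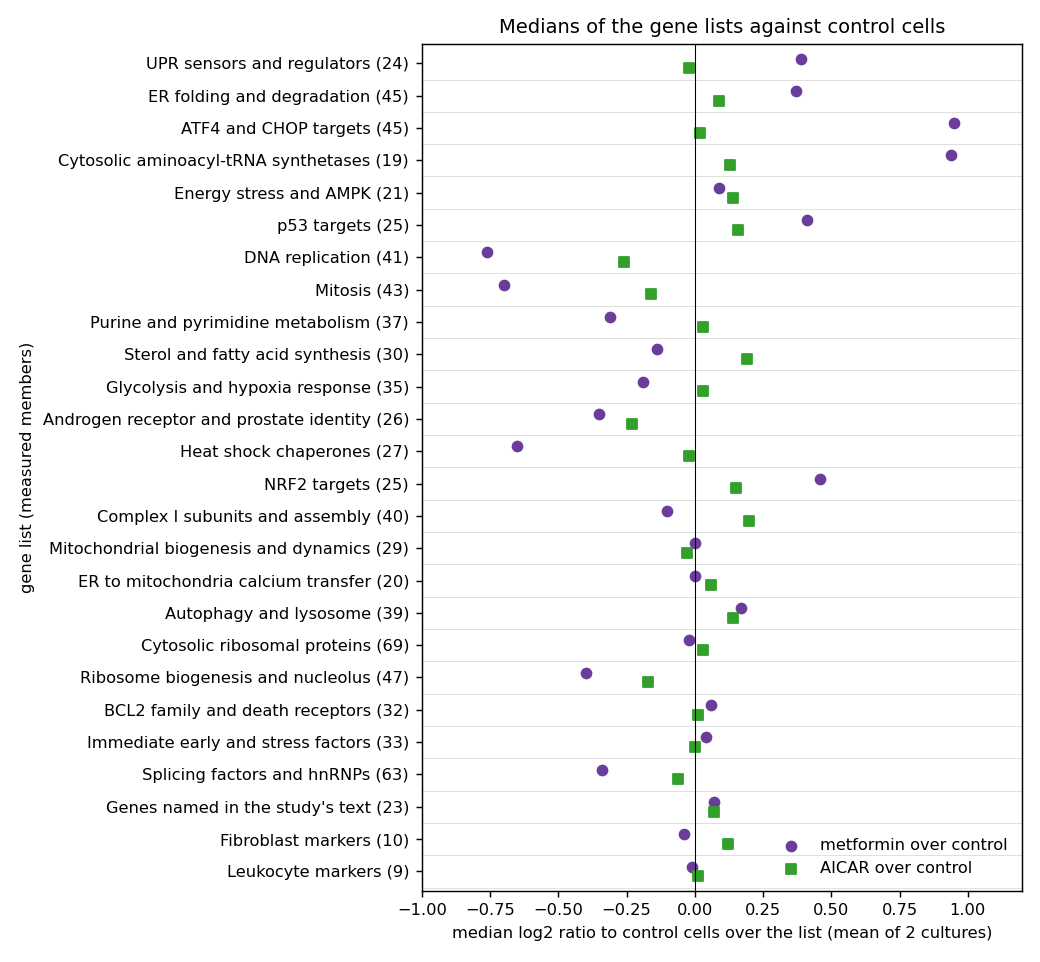
Median log2 ratio to control (x axis) over the measured members of each gene list (y axis), metformin over control as purple circles and AICAR over control as green squares. The DNA replication list is at -0.76 with metformin and -0.26 with AICAR, and the ATF4 and CHOP targets are at 0.95 and 0.02.

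Among the 12 lowest genes, ALB (albumin, of the liver) at -1.69 and GCG (glucagon, of the pancreas) at -1.86 are not genes known for prostate cells. Log ratios alone cannot show whether these spots were above background. ALB had -1.83, -1.78, -1.62 and -1.51 and GCG -1.26, -1.93, -1.87 and -2.39. The 12 lowest genes were required to have 1 sign on all arrays, so this agreement was set by the choice. Of 10 fibroblast markers only VIM was called, lower at -1.10 and not without either of the 2 arrays named above, and of 9 leukocyte markers none, with CD8A at 0.37 (adjusted p = 0.102) and CD14 at -0.21 (adjusted p = 0.262). Over all features 5.65% were called, and marker lists this short cannot be told apart from that share. The ranges of the marker lists were -1.10 to 0.12 and -0.21 to 0.37, and their part in the results was not tested.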

How the data were processed

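LNCaP RNA was hybridised to spotted oligonucleotide arrays (human RNG/MRC collection). The log2 ratios deposited by the authors had been normalised with limma (version not given in the sources used here), by print-tip loess within slides and by quantiles between slides. The log base, the direction and any background correction are not stated, and no intensities were used here. The labels give 24 h of treatment, and one passage of the study gives a shorter time. No values were missing.

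Probes were named from the platform annotation and RefSeq. Of 17711 annotated probes, 17508 were named and 203 with conflicting names were not. The named probes gave 14418 genes, of which 1999 had more than 1 probe, averaged here, and 10140 features had no name. Ratios were turned to metformin over AICAR and dye-swap partners, which correlated at 0.723 and 0.658 across probes, were averaged within a culture. Pairing is within each array, since both channels hold RNA of the same culture number. limma 3.58.1 in R 4.3.3 fitted the mean of the 2 cultures with moderated variances (prior degrees of freedom 2.77, residual degrees of freedom 1) and Benjamini-Hochberg adjustment over 24558 features. The thresholds, adjusted p under 0.05 together with more than 0.7 on the log2 scale, were taken from the study's methods. SE is the moderated standard error over 2 cultures. It is formed from the culture means, so differences between dye-swap partners enter neither the SE nor the p-value. Precision is limited by there being 4 arrays.

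The members and the 26 gene lists were chosen with earlier results of these data known. Named genes are the 12 called genes at each end of the ratios with 1 sign on all arrays, up to 5 called members of each list in each direction (or the 2 with the smallest p), and the genes in the study's text. Lists were counted, not tested. Alternatives were arrays as separate data points, a dye term, culture as a random block, all 12 arrays, the 8 control arrays, either dye orientation, median centring, scaling to 1 median absolute deviation, robust variances, single probes, named genes only, other thresholds and each array or culture left out. The fit was tested on simulated data. Promoter sequences are from RefSeq.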

Additional observations from a re-analysis of the deposited data

Results flagged for a closer look

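For 134 genes named by the rule, the 4 arrays were examined for one that stood far from the others, and 2 were found. The limit used flags about 1 in 20, or 6.7, where the 4 values are independent. These arrays are dye-swap pairs of 2 cultures, so nothing is concluded from the count of 2. MCM3 was at -1.48 on the culture 2 array with metformin in Cy3, against -1.15 to -1.14 on the other arrays. FADS1 was at -1.26 on the same array, against -1.47 to -1.45 on the others.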

How the results depend on the processing

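The direction of every called gene named by the rule held under all alternatives that gave it a value. Each of these genes had the same sign on all 4 arrays. Leaving out an array or a culture, or using a single dye orientation, could therefore not turn its direction. The counts of 922 higher and 466 lower were within 1.5 times under most settings. They were 609 and 238 with arrays scaled to 1 median absolute deviation, which kept 745 of the 1388 calls and ended the call of 59 of the 116 followed genes, and 571 and 190 with a log2 threshold of 1. The cause of the first was not tested, and the second holds fewer genes by construction. Leaving out 1 array gave 180 to 1225 higher and 53 to 652 lower. The culture 1 array with metformin in Cy3 and the culture 2 array with metformin in Cy5 set the low ends, and without one or the other 233 and 263 of the 1388 calls remained. With all 12 arrays, treatment and culture as the replicate block, 1127 were higher and 494 lower. Arrays as separate data points gave 1245 and 640. With a whole culture left out, 1 culture remained and no test was possible. Genes that did not pass and changed sign were ATF6, at 0.79 for its probe of smaller p, ITPR3, at 0.05 with only metformin in Cy5, SDHA, at 0.17 in the same setting, 0.05 and 0.09 on leaving out an array with metformin in Cy3 and -0.17 at the lowest, and MFF, at -0.16 with only metformin in Cy3 and -0.06 to 0.26 with 1 array left out. A filter on low values could not be run, since no intensities were analysed here.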

Other observations

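Of the 1388 calls, 367 were of features without a gene name here, 257 higher and 110 lower. Zinc finger genes with a symbol of ZNF and 3 digits were higher with metformin in 22 of 247 cases (8.9%, against 3.75% of all features) and lower in 2, with a median log2 ratio of 0.13. This group was chosen with that pattern already known from these data.

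Prostate and androgen receptor genes had 2 of 26 higher and 1 lower (7.7% and 3.8%, against 3.75% and 1.9% of all features), with a median of -0.14. STEAP2, a metalloreductase of prostate cells, was higher at 0.90, as was NDRG1, and ACP3, prostatic acid phosphatase, was lower at -0.80. No call of the list remained without the culture 1 array with metformin in Cy3, nor without the culture 2 array with metformin in Cy5. Of 69 cytosolic ribosomal proteins only RPL34 was called (1.4%, against 5.65% of all features), lower at -0.98 (adjusted p = 0.0383). Their median was -0.13.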
